A study of Mus musculus with 19 samples.

Results

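The genes described here are 10 antigen presentation genes of the mouse, taken by symbol from the 48709 genes counted in each of 19 libraries. H2-K1, H2-D1 and B2m encode class I molecules, and Tap1 and Tapbp encode their peptide loading machinery. H2-Aa, H2-Ab1 and H2-Eb1 encode class II molecules, Cd74 encodes the invariant chain that blocks their groove, and Ciita encodes the class II activator. All 10 passed the filter on low counts.

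MHC class I molecules display peptides from inside the cell to CD8+ T cells, and nearly every nucleated cell can make them. MHC class II molecules display peptides taken up from outside to CD4+ T cells, and in the brain they are made mainly by microglia, border macrophages and other myeloid cells. Interferons raise both, through NLRC5 for class I and CIITA for class II.

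The libraries are polyA RNA of micro-dissected hippocampal CA1 tissue from mice aged 7 months. APP mice carried transgenes that the Thy1 promoter drives in neurons, a mutant human APP among them, and WT mice were littermates without them. All 3 groups received lipid nanoparticles in the dorsal hippocampus. WT control (n = 6) and APP control (n = 6) are the control arms, and APP anti-miR-mix (n = 7) received inhibitors of 3 miRNAs, which are miR-146a-5p, miR-148a-3p and also miR-181a-5p. The titles of the WT libraries also carry the words anti-miR-mix, while the study describes a scrambled control oligonucleotide for its control arms. No group was left without an injection, so a response to the injection itself is shared by all 3 and cannot be told apart.

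Total counts ran from 19362343 to 37018917 per library. The transgene check held for the labels: Thy1, whose promoter sequences the transgenes carry, lay between 18117 and 20734 normalized counts in WT control, and between 36153 and 62866 in APP control. App lay between 49038 and 54801 normalized counts in WT control and between 67218 and 80752 in APP control. A normalized count is the read count divided by the size factor of its library. Xist lay between 5.95 and 19.1 normalized counts in all 19 libraries. The 9 CA1 neuron markers summed to 204431 to 279081 normalized counts in the 19 libraries. Most of that sum came from Camk2a, Snap25 and Slc17a7, which are not limited to CA1 neurons. Wfs1 ran from 3309 to 10090 and Fibcd1 from 2623 to 11298, so the sum does not check the dissection of CA1. 4 libraries stood apart in lists of marker genes. WT control 1 held the highest sum of the 20 interferon response genes and of the 8 T cell markers in its group. APP control 5 held 1210 normalized counts of S100a8 and 1523 of S100a9, both neutrophil genes. Its microglia markers summed to 15924 normalized counts, the lowest of its group and within the 12024 to 18376 of WT control. Its endothelial marker sum, 7660, was the highest of the 19 libraries. WT control 5 and APP anti-miR-mix 6 held the highest sums of the choroid plexus markers, 2613 and 1845 normalized counts.

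RefSeq promoter windows were at hand for 7 members. H2-K1 has 2 starts there, and the positions given for it hold only for the start used. Shown are the 200 bases upstream of the RefSeq start (GRCm38.p6) of 3 class I genes and 2 class II genes, in lower case with 4 textbook elements in capitals, so that shared and unshared stretches can be seen. The letters searched on both strands were CCAAT (the CCAAT box), TTTCNNTT (the core of an interferon-stimulated response element), GGGATTCCC (an NF-kB site) and TGACGTCA (a cAMP response element), and no match overlapped another. They were chosen after the windows had been read.
H2-K1, chr17:34000334-34000533, minus strand: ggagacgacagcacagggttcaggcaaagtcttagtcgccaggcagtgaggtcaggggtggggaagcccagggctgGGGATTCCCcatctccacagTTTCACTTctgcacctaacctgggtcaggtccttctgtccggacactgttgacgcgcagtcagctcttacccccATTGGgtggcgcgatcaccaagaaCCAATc
H2-D1, chr17:35262894-35263093, plus strand: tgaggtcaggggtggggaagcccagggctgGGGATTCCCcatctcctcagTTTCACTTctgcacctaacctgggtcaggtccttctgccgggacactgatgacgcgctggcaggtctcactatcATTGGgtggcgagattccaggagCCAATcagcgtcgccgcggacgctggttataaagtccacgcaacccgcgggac
B2m, chr2:122147487-122147686, plus strand: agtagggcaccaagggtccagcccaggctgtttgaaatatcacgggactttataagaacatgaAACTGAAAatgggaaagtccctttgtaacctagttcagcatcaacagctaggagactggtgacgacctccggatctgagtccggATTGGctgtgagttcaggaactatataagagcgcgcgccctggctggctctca
H2-Aa, chr17:34287824-34288023, minus strand: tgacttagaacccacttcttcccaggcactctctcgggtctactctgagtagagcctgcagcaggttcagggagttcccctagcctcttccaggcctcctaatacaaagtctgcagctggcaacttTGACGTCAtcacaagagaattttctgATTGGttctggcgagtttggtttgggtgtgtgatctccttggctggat
H2-Eb1, chr17:34305667-34305866, plus strand: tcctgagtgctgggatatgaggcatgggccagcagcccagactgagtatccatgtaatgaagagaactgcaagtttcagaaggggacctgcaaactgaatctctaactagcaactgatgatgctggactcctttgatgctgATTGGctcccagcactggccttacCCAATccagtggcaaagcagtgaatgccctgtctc

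H2-K1 and H2-D1 shared an unbroken run of 46 bases in these windows, and in each the NF-kB letters stood ahead of the interferon element core. The NF-kB letters lay 124 to 116 bases upstream of the H2-K1 start and 170 to 162 bases upstream of the H2-D1 start, and 0.213% of the 32851 promoters in the table hold them within 200 bases. The interferon element core lay 104 to 97 bases upstream in H2-K1, 150 to 143 in H2-D1 and 137 to 130 in B2m, and 17% of promoters hold it. The CCAAT letters were present in all 5 windows and in that of Tapbp, against 29.3% of promoters. Tapbp, whose window is not shown, held none of the other elements, and Tap1, also not shown, held none of the 4. The H2-Aa window alone of the 5 held the cAMP response element, 74 to 67 bases upstream, against 1.47% of promoters. These matches describe letters only.

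The 3 inhibited miRNAs have different seeds, the bases at positions 2 to 8 that pair with a target. Their mature RefSeq sequences are given with the seed in capitals.
miR-181a-5p: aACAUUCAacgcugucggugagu
miR-146a-5p: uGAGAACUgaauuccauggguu
miR-148a-3p: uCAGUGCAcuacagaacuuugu

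H2-K1 and H2-D1 each held 1 match to the complement of each of these seeds in the longest annotated stretch after the stop codon, 455 bases in H2-K1 and 629 bases in H2-D1. Of 4020 protein-coding genes with such a stretch of 300 to 700 bases, only 2 (0.0498%) held all 3 matches, and those were H2-K1 and H2-D1. These are related genes with the sites at nearly the same places, so they are not 2 independent cases. For single miRNAs, the shares among the same genes were 5.75% for miR-181a-5p, 3.81% for miR-146a-5p and 5.42% for miR-148a-3p. H2-Ab1 and Cd74 held a match for miR-181a-5p, Tapbp for miR-146a-5p and Ciita for miR-148a-3p, while B2m, Tap1, H2-Aa and H2-Eb1 held none. The stretches of Tapbp (1141 bases), H2-Eb1 (787) and Ciita (2676) are longer than 700 bases. The shares above do not apply to them, since a longer stretch holds a match by chance more often. The sites of H2-K1 and H2-D1 are shown 5′ to 3′ in DNA letters (GRCm38), with the match in capitals.
H2-K1, miR-181a-5p, chr17:33996162-33996184, minus strand: ctgagaataataattTGAATGTa
H2-K1, miR-146a-5p, chr17:33996393-33996415, minus strand: acatccagagccctcAGTTCTCt
H2-K1, miR-148a-3p, chr17:33996292-33996314, minus strand: ccaggaccctgtcccTGCACTGc
H2-D1, miR-181a-5p, chr17:35267157-35267179, plus strand: ctgagaataataattTGAATGTg
H2-D1, miR-146a-5p, chr17:35266927-35266949, plus strand: acatccagagccctcAGTTCTCt
H2-D1, miR-148a-3p, chr17:35267027-35267049, plus strand: ccaggaccctatcccTGCACTGc

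The miR-146a-5p site began 72 bases after the stop codon in both genes, and its 23 bases were identical between them. The miR-148a-3p site began 173 bases after the stop codon in H2-K1 and 172 bases after it in H2-D1. H2-K1, H2-D1 and H2-Aa stand among the predicted miR-146a-5p targets in the portion of the study's prediction table that was read, a table held here only in part. A seed match is a description of letters, and no binding was measured.

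H2-K1 (ENSMUSG00000061232, chr17:33996017-34000347, minus strand) and H2-D1 (ENSMUSG00000073411, chr17:35262730-35267499, plus strand) encode the classical class I heavy chains, and B2m (ENSMUSG00000060802, chr2:122147686-122153083, plus strand) encodes the light chain that both need to reach the cell surface. Levels between genes are compared as normalized counts per kb of joined exons (GENCODE M21, GRCm38). In WT control, the level of B2m was 4950 ± 2030 per kb (SD, n = 6), that of H2-D1 was 974 ± 559 and that of H2-K1 was 660 ± 372. B2m stood above every other member without overlap of the 6 libraries, whereas the ranges of H2-D1 and H2-K1 overlapped.

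Tapbp (ENSMUSG00000024308, chr17:33915899-33929292, plus strand) encodes tapasin, which holds empty class I molecules at the peptide transporter, and Tap1 (ENSMUSG00000037321, chr17:34187553-34197225, plus strand) encodes a subunit of that transporter. Their WT control levels were 275 ± 56.3 per kb and 54.6 ± 34.4 per kb (SD, n = 6). Cd74 (ENSMUSG00000024610, chr18:60803848-60812652, plus strand) encodes the invariant chain, which blocks the class II groove until the molecule reaches the endosome, and its level was 230 ± 262 per kb. The Tapbp and Cd74 ranges overlapped in all 3 groups, and Cd74 had the higher mean in both APP groups.

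H2-Eb1 (ENSMUSG00000060586, chr17:34305867-34316674, plus strand) and H2-Ab1 (ENSMUSG00000073421, chr17:34257689-34269419, plus strand) encode class II beta chains, and H2-Aa (ENSMUSG00000036594, chr17:34282744-34287823, minus strand) encodes the alpha chain that pairs with H2-Ab1. Their WT control levels were 67.9 ± 54.1, 52.1 ± 50.5 and 51.7 ± 49.0 per kb (SD, n = 6), and they could not be ordered among themselves or against Tap1, since neighbouring ranges overlapped. Ciita (ENSMUSG00000022504, chr16:10480059-10528418, plus strand) encodes the co-activator that class II transcription depends on, and stood lowest in every group, at 7.16 ± 1.81 per kb in WT control and 5.72 ± 1.5 per kb in APP control (SD, n = 6 each). The ranges of Ciita and of H2-Aa, the next above it, did not overlap in any group.

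Whether the transgenes change antigen presentation in CA1 was asked by setting APP control against WT control. In the DESeq2 fit of all 19 libraries, 0 of the 10 genes passed an adjusted p of 0.05, where 4.71% of the 19297 genes tested passed. edgeR also called 0 of 10, and 3 members, B2m, Tapbp and H2-D1, had an unadjusted DESeq2 p under 0.05. 9 of the 10 log2 fold changes lay above 0, with a median of 0.45 against a median of -0.01 over all genes tested. 2 of them, H2-Aa and H2-Eb1, turned below 0 without APP control 4. The count of 0 changed most with 1 library. Without WT control 1, 6 of 10 members rose, H2-K1, H2-D1, B2m, Tap1, Tapbp and Cd74. In that fit 4.65% of genes passed as higher and 6.23% in either direction. edgeR without it called 4 of 10, against 4.18% in either direction. WT control 1 was the highest WT library for 9 of the 10 members, so its removal raises their fold changes and is no independent test. With other single libraries left out, the log2 fold changes fell as low as 0.37 for H2-K1, 0.53 for H2-D1, 0.62 for B2m, 0.27 for Tap1 and 0.34 for Tapbp. With WT control 1 kept, B2m and Tapbp passed with a replicate block, with limma on the deposited table or without APP control 5, and Tapbp alone passed without APP control 6, with the adjustment number (a whole number from 1 to 5 per library, recovered from the deposited table, whose meaning is not given in the sources used here) as a factor, or with Xist as a covariate. In bulk tissue, more cells of a type and more RNA per cell cannot be told apart.

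B2m ran from 2717 to 7450 normalized counts in WT control (median 3843) and from 4821 to 10514 in APP control (median 7079). The highest WT value was that of WT control 1, and the other 5 WT libraries ended at 4842, just above the lowest APP library. This gave a log2 fold change of 0.76 ± 0.27 (SE, DESeq2 adjusted p = 0.078), and 1.00 ± 0.21 without WT control 1 (adjusted p = 0.000174).

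Tapbp, the member with the tightest groups, ran from 860 to 1379 normalized counts in WT control (median 897) and from 1029 to 1496 in APP control (median 1336). 5 of the WT libraries lay between 860 and 1077, so that the overlap came from WT control 1 and, narrowly, from WT control 4. Its log2 fold change was 0.38 ± 0.14 (SE, DESeq2 adjusted p = 0.0754), and 0.50 ± 0.12 without WT control 1 (adjusted p = 0.00172). Tapbp shares 904 bases of its exons with Gm19412 on the opposite strand and 149 with Zbtb22, and the strand setting of the counting is not given in the sources used here.

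H2-D1 ran from 1654 to 5399 normalized counts in WT control (median 2017) and from 3180 to 6302 in APP control (median 3660). WT control 1 lay inside the APP range, and the other 5 WT libraries ended at 2297, below every APP control library. The log2 fold change was 0.70 ± 0.32 (SE, DESeq2 adjusted p = 0.243), and 1.07 ± 0.23 without WT control 1 (adjusted p = 0.00012).

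H2-K1 ran from 1220 to 4082 normalized counts in WT control (median 1544) and from 2137 to 4172 in APP control (median 2544). The same library again made the overlap, since the other 5 WT libraries ended at 1975. The log2 fold change of 0.52 ± 0.32 (SE, DESeq2 adjusted p = 0.505) became 0.88 ± 0.23 without WT control 1 (adjusted p = 0.00413). Of the stretches of 50 bases, the read length, in the longest H2-K1 transcript, 8.11% also occur in transcripts of another gene, most often H2-D1, and for H2-D1 the share is 14.3%, so these counts could in part be split between relatives.

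Tap1 ran from 168 to 655 normalized counts in WT control (median 215) and from 309 to 527 in APP control (median 359). WT control 1 was higher than any APP control library. The log2 fold change was 0.39 ± 0.32 (SE, DESeq2 adjusted p = 0.698), and 0.78 ± 0.22 without WT control 1 (adjusted p = 0.011; with edgeR, adjusted p = 0.056). Tap1 shares 212 exon bases with Psmb9 on the opposite strand.

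**Figure D1:**
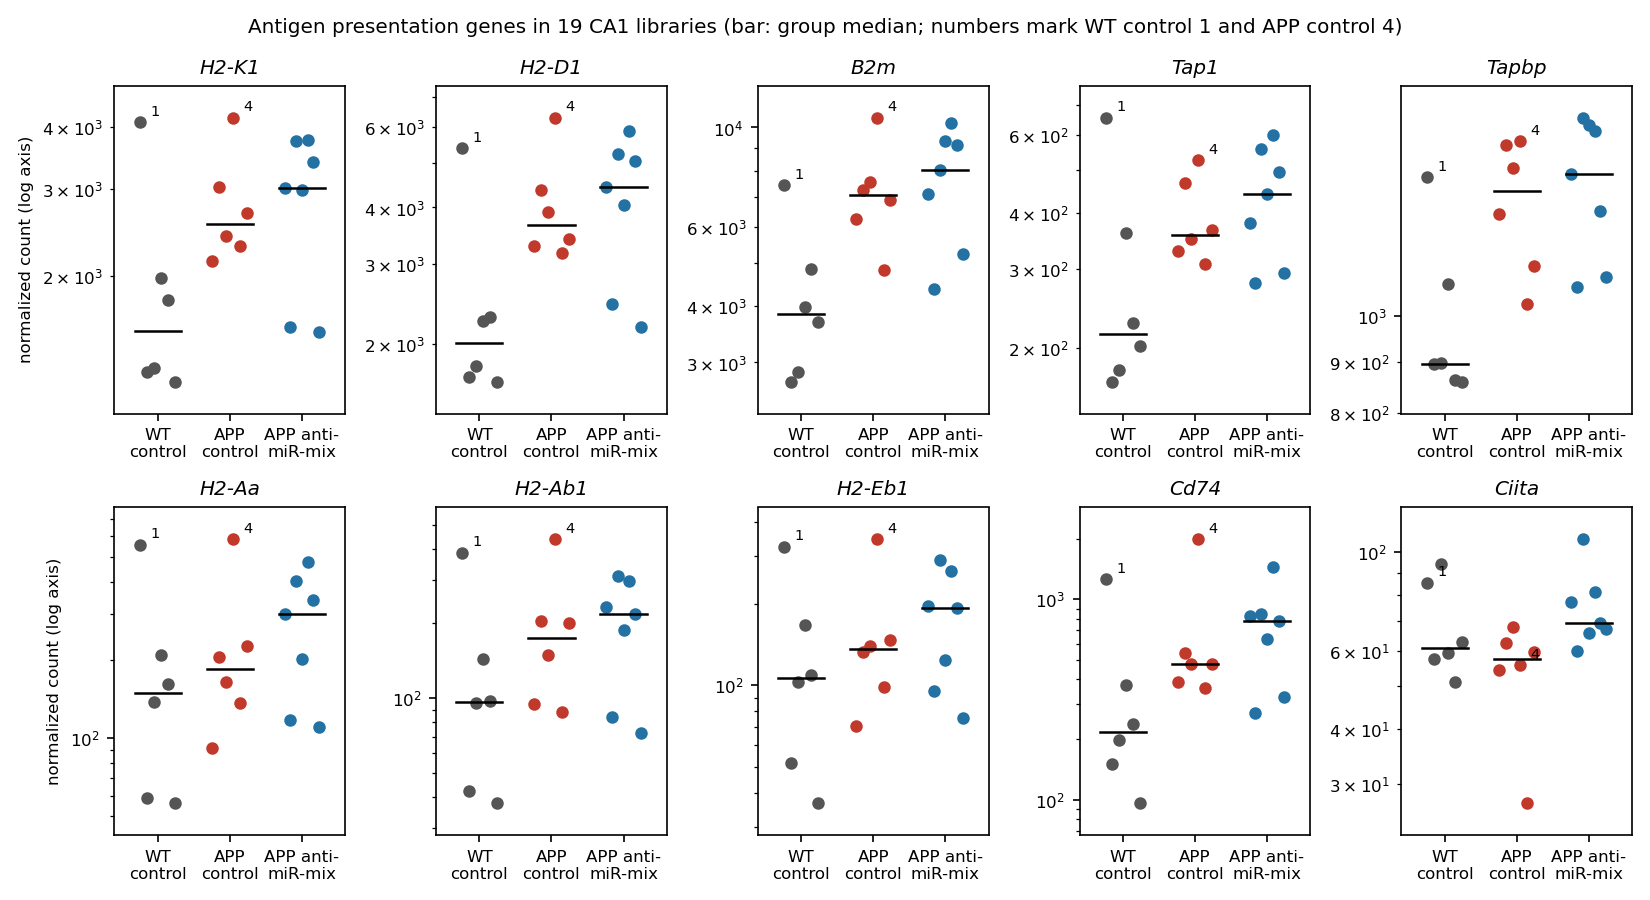
Normalized counts of the 10 genes on log axes, 1 point per library, by group (WT control, n = 6; APP control, n = 6; APP anti-miR-mix, n = 7), with a bar at each group median; the numbers 1 and 4 mark WT control 1 and APP control 4. WT control 1 was the highest WT library for 9 of the 10 genes and APP control 4 the highest APP control library for 9 of the 10.

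The class II genes were widely spread within groups. Cd74 ran from 96.0 to 1264 normalized counts in WT control (median 219) and from 362 to 1997 in APP control (median 475). The 5 WT libraries other than WT control 1 ended at 372, and 5 of the 6 APP control libraries lay between 362 and 539, with APP control 4 far above them. The log2 fold change was 0.87 ± 0.60 (SE, DESeq2 adjusted p = 0.59), and 1.74 ± 0.51 without WT control 1 (adjusted p = 0.0149; with edgeR, adjusted p = 0.0544). Without APP control 4 it was 0.21.

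H2-Ab1 ran from 37.7 to 386 normalized counts in WT control (median 96.2) and from 88.1 to 437 in APP control (median 174). Its groups overlapped also without WT control 1, whose removal moved the log2 fold change from 0.55 ± 0.55 to 1.23 ± 0.48 (SE) without passing the threshold (DESeq2 adjusted p = 0.788 and 0.115). Without APP control 4 the log2 fold change of H2-Ab1 was 0.14. H2-Aa ran from 56.0 to 556 in WT control (median 149) and from 91.7 to 584 in APP control (median 184).

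H2-Eb1 ran from 36.6 to 325 normalized counts in WT control (median 106) and from 70.4 to 346 in APP control (median 137). For H2-Aa and H2-Eb1, the log2 fold changes were 0.26 ± 0.57 and 0.24 ± 0.50 (SE), and 0.91 ± 0.51 and 0.73 ± 0.46 without WT control 1, with DESeq2 adjusted p from 0.362 to 0.942 over the 4 values. Without APP control 4 both signs turned, to -0.26 for H2-Aa and -0.17 for H2-Eb1. The 3 peptide-binding class II genes therefore passed in neither fit.

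Ciita was the only member with a negative log2 fold change, -0.33 ± 0.20 (SE, DESeq2 adjusted p = 0.512). It ran from 50.9 to 94.1 normalized counts in WT control (median 61.0) and from 27.2 to 68.0 in APP control (median 57.6). The lowest value came from APP control 5, the library with the neutrophil genes, and the next lowest APP control library held 54.4. The log2 fold change of Ciita was -0.19 without APP control 5 and -0.215 without WT control 3. Ciita shares 329 exon bases with Dexi on the opposite strand.

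**Figure D2:**
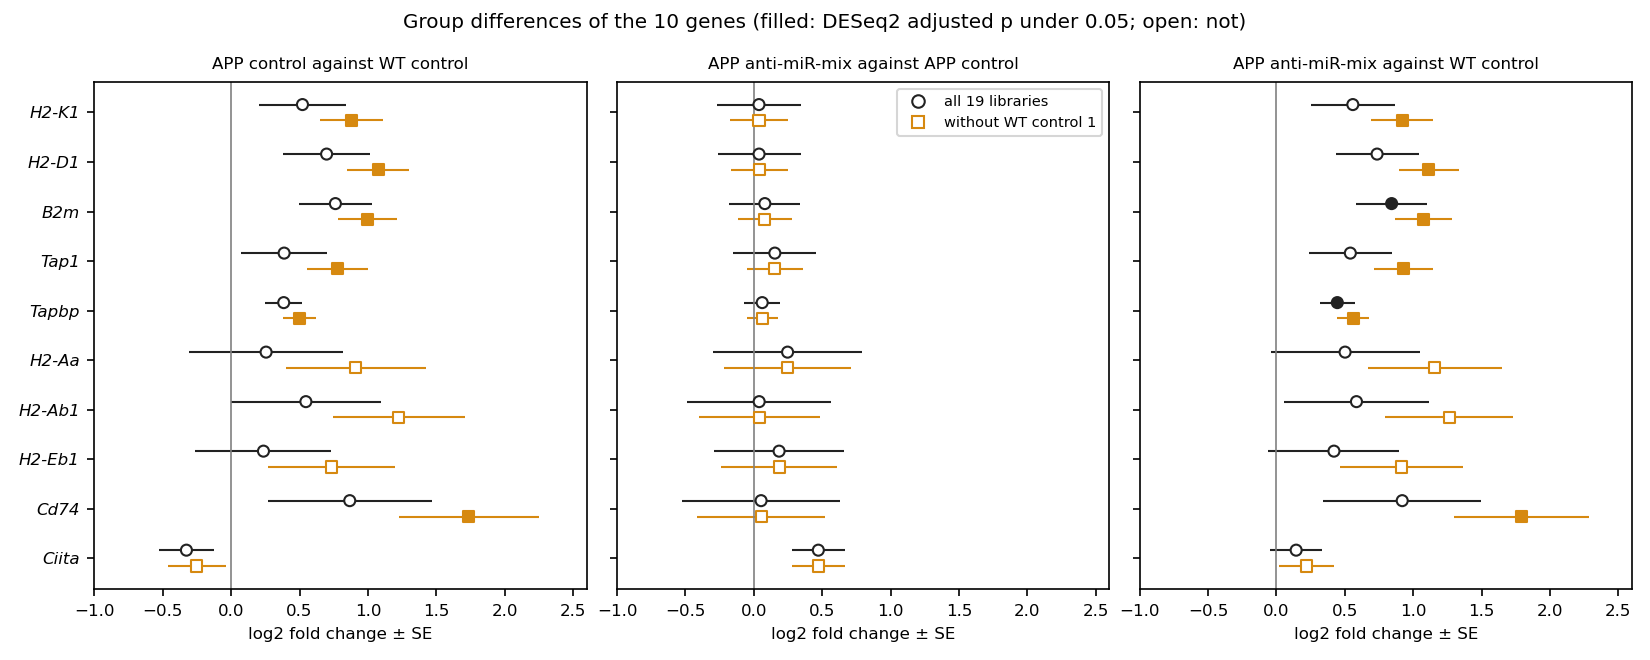
Log2 fold changes of the 10 genes in the 3 comparisons with bars of 1 SE, from all 19 libraries (circles) and without WT control 1 (squares); filled symbols passed a DESeq2 adjusted p of 0.05. Without that library 6 genes passed in each comparison against WT control, and none passed between the APP groups in either fit.

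WT control 1 differed from its group in more than the members. Nlrc5, the class I activator, held 685 normalized counts there and 116 to 269 in the other 5 WT libraries. The sum of the 20 interferon response genes was 14992 normalized counts, against 6118 to 10135 in the other 5, and the sum of the 8 T cell markers was 368, against 122 to 182. The summed microglia markers, 17558 normalized counts, lay within the 12024 to 18376 of the other 5. Their part in the values of WT control 1 was not tested, and Ifng, the gene of the interferon that T cells release, was at or below 2.35 normalized counts in all 19 libraries.

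The effect of the inhibitors was asked by setting APP anti-miR-mix against APP control. DESeq2 called 0 of the 10 genes, and also 0% of the 19297 tested. edgeR called 0 genes as well, with 552 genes at an unadjusted DESeq2 p under 0.05 and 572 by edgeR. The 10 log2 fold changes all lay above 0, with a median of 0.07 against -0.0015 over all genes tested, and 9 of them lay within 0.25 of 0. The sign of 5 of them, H2-K1, H2-D1, B2m, H2-Ab1 and Cd74, turned when single APP libraries were left out. Their lowest values were -0.04, -0.06, -0.01, -0.11 and -0.20.

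H2-K1 ran from 1535 to 3756 normalized counts in APP anti-miR-mix (median 3010), and H2-D1 from 2180 to 5883 (median 4433). Both ranges covered most of the APP control range, and both reached below it in the libraries APP anti-miR-mix 2 and 7. The log2 fold change of H2-K1, with a site for each inhibited miRNA, was 0.04 ± 0.31 (SE), with a 95% interval from -0.57 to 0.64. For H2-D1 it was 0.04 ± 0.30, with an interval from -0.56 to 0.63, and these intervals do not show that the inhibitors had no effect on either.

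B2m, with no seed match, ran from 4361 to 10229 normalized counts in APP anti-miR-mix (median 8060), and its log2 fold change was 0.08 ± 0.26 (SE, interval -0.43 to 0.59). Tapbp ran from 1071 to 1580 (median 1389), with a log2 fold change of 0.06 ± 0.13 (interval -0.19 to 0.32). Tap1 ran from 279 to 600 (median 443). The groups overlapped for each of these 3 genes.

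Cd74 ran from 271 to 1444 normalized counts in APP anti-miR-mix (median 779), with a log2 fold change of 0.05 ± 0.58 (SE, interval -1.08 to 1.19). H2-Aa (110 to 475), H2-Ab1 (72.2 to 312) and H2-Eb1 (75.5 to 291) were spread as widely. Their log2 fold changes were 0.25 ± 0.54, 0.04 ± 0.53 and 0.18 ± 0.48 (SE), with intervals of -0.82 to 1.31, -0.99 to 1.07 and -0.75 to 1.12, so that these data bound the class II genes only loosely. Leaving out 1 library moved H2-Aa between 0.07 (without APP anti-miR-mix 5) and 0.76 (without APP control 4), and H2-Eb1 between 0.02 (without APP anti-miR-mix 3) and 0.59 (without APP control 4).

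Ciita, with a seed match for miR-148a-3p, had the lowest unadjusted p of the members, 0.0148 (DESeq2 adjusted p = 1; edgeR unadjusted p = 0.0209), with a log2 fold change of 0.47 ± 0.19 (SE). It ran from 59.8 to 107 normalized counts in APP anti-miR-mix (median 69.2), overlapping the 27.2 to 68.0 of APP control. Its lowest APP control value was that of APP control 5. The seed match of Ciita stands in a stretch of 2676 bases, for which no share over genes was taken.

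The third comparison, APP anti-miR-mix against WT control, shares its WT libraries with the first and is given as values. DESeq2 called 2 of the 10 genes, both higher, against a background of 8.95% of genes, and edgeR called the same 2, B2m and Tapbp. B2m had a log2 fold change of 0.84 ± 0.26 (SE, adjusted p = 0.0182) and Tapbp of 0.45 ± 0.13 (adjusted p = 0.0112). The groups overlapped for both: WT control 1 lay inside the APP anti-miR-mix range, and APP anti-miR-mix 2 lay below WT control 5 for B2m and below WT control 4 for Tapbp. The B2m call was lost without WT control 6 or without any of APP anti-miR-mix 4, 5 and 6, left out singly, with DESeq2 adjusted p from 0.0516 to 0.0586. Without WT control 5 and APP anti-miR-mix 6 together, neither B2m (adjusted p = 0.0727) nor Tapbp (adjusted p = 0.0522) passed. In the same comparison 11 of 12 microglia markers were higher (edgeR 10), with a median log2 fold change of 0.93, as were 6 of 10 border macrophage markers (edgeR 1), with a median of 0.92, and 4 of 8 endothelial markers (edgeR 3), with a median of 0.26. Their part in the B2m and Tapbp values was not tested.

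Without WT control 1, DESeq2 called 6 of 10 members in that comparison, against a background of 10.4%, and edgeR called 6 of 10 against 7.28%. They were H2-K1, H2-D1, B2m, Tap1, Tapbp and Cd74 by either tool. Cd74 then had a log2 fold change of 1.79 ± 0.50 (SE, DESeq2 adjusted p = 0.00548), up from 0.92 ± 0.58 with all libraries (adjusted p = 0.399). H2-Ab1 reached 1.26 ± 0.47 (adjusted p = 0.0592) and did not pass.

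Of the genes that load class II molecules, H2-DMb1, H2-Oa, H2-Ob, Ctss, Ctsl, Ctsb and Lgmn rose. In APP control against WT control, 7 of the 12 genes in the class II loading list rose and 0 fell among 10 tested, with a median log2 fold change of 0.56, where 3.66% of all genes tested passed as higher. H2-DMa, H2-DMb2 and Ifi30 were tested and did not pass, with log2 fold changes of 0.27, 0.31 and 0.21. H2-DMb1, a chain of the DM peptide editor, rose by 0.92 ± 0.21 (SE, DESeq2 adjusted p = 0.000744). H2-Oa and H2-Ob, the chains of DO, the brake on DM, rose by 1.78 ± 0.32 (adjusted p = 2.15e-06) and 1.49 ± 0.28 (adjusted p = 7.77e-06). Ctss, the protease that cuts the invariant chain, rose by 1.23 ± 0.21 (adjusted p = 5.98e-07). The endosomal proteases Ctsl, Ctsb and Lgmn made up the other 3, with log2 fold changes of 0.70, 0.43 and 0.41. H2-Oa shares 22.8% of its exon bases with BC051537 on the opposite strand, Ctsl overlaps Gm47123 on the opposite strand over 26.9% of its exon bases, and Ctsb overlaps Fdft1 over 12.8%.

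Ctss ran from 2694 to 5654 normalized counts in WT control and from 6388 to 12536 in APP control, with no overlap. H2-Ob ran from 21.2 to 44.4 in WT control and from 36.5 to 137 in APP control, where only APP control 5 overlapped. All 7 genes passed again without WT control 1, and 7 passed in APP anti-miR-mix against WT control, where 5.59% of all genes passed as higher. Between the APP groups 0 passed in this list. Several of these proteases are general lysosomal enzymes, and the microglia markers rose as well, 10 of 12 in APP control against WT control with a median log2 fold change of 0.85, whose part in these values was not tested.

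Calls among the class I partners depended on WT control 1. In APP control against WT control, DESeq2 and edgeR each called 0 of the 6 class I loading genes and 0 of the 5 immunoproteasome genes, with 1 and 2 at an unadjusted DESeq2 p under 0.05. Without WT control 1, 2 of 6 rose (Tap2 and Tapbpl) and 3 of 5 (Psmb8, Psmb9 and Psme1), beside 4.65% of the genes tested in that fit. Tap2, the partner of Tap1, then rose by 0.59 ± 0.13 (SE, DESeq2 adjusted p = 0.000167) and Psmb8, a catalytic subunit, by 1.10 ± 0.23 (adjusted p = 0.000102). Against the same background of 3.66% higher, of the 16 other class I genes, 14 were tested and 2 rose with all libraries, H2-M3 by 0.77 ± 0.21 (adjusted p = 0.00905) and Mr1, which shows microbial metabolites to T cells, by 0.48 ± 0.08 (adjusted p = 1.22e-06), and 4 rose without WT control 1, where 4.65% of all genes passed as higher, H2-Q6 and H2-T23 in addition. Mr1 ran from 147 to 195 normalized counts in WT control, with WT control 1 not the highest, and from 220 to 270 in APP control.

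Among 15 regulators, again beside 3.66% of all genes, 14 were tested and 2 rose, Irf8, a myeloid transcription factor, by 1.40 ± 0.22 (SE, DESeq2 adjusted p = 1.08e-07) and Ifngr1, a chain of the interferon gamma receptor, by 0.35 ± 0.10 (adjusted p = 0.008). In APP anti-miR-mix against WT control, 5.59% of all genes passed as higher and 3.36% as lower. There these 2 rose again, and Rfx5, which binds class II promoters, fell by 0.19 on the log2 scale (DESeq2 adjusted p = 0.0107). Rfx5 shares 1471 exon bases with B230398E01Rik on the opposite strand. Of 8 co-stimulation genes, 7 were tested and 2 rose in APP control against WT control, beside the same 3.66%, Cd86 by 1.13 ± 0.18 (adjusted p = 7.42e-08) and Cd83 by 0.49 ± 0.12 (adjusted p = 0.00195). Without WT control 1, Nlrc5 passed among the regulators and Icam1 and Cd274 among the co-stimulation genes. Between the APP groups 0 genes of these lists passed.

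**Figure D3:**
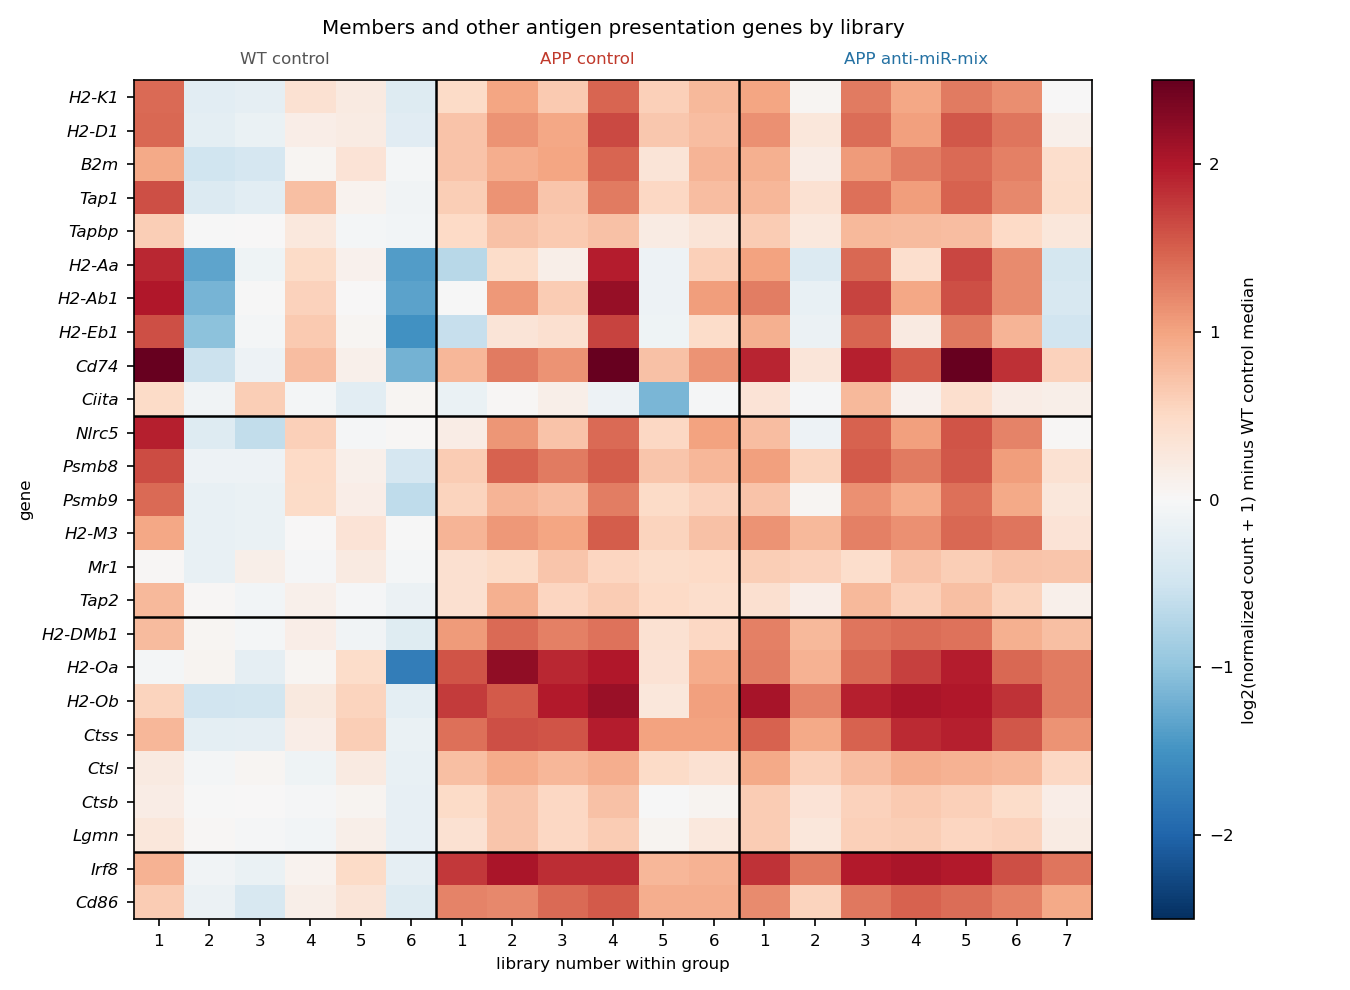
Log2(normalized count + 1) minus the WT control median, for the 10 members and 15 further antigen presentation genes (rows) in 19 libraries (columns, numbered within group); red is higher and blue lower, and the scale ends at 2.5. WT control 1 is red for most members, Nlrc5, Psmb8 and Psmb9 and pale for Tapbp, Ciita, Mr1, H2-Oa, Ctsl and Ctsb. The class II loading genes are red across most APP libraries, with Ctsl, Ctsb and Lgmn paler.

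Other lists stand beside these counts, to be read against the 3.66% of all genes that passed as higher with all libraries and the 4.65% without WT control 1. The amyloid response list of microglia had 13 of 16 genes higher in APP control, with a median log2 fold change of 1.16. The interferon response list had 0 of 20 by DESeq2 and edgeR (4 at an unadjusted DESeq2 p under 0.05), with a median of 0.29, and without WT control 1 it had 4 of 20, Ifitm3, Stat2, Irf9 and Ifi27. The T cell markers had 0 of 8 by either tool (0 unadjusted) and a median of -0.15, which turned to 0.43 without WT control 1. The dendritic cell markers had 0 of 7 tested (1 unadjusted) and a median of 0.02, and 1 of 7, Batf3, without WT control 1. The B cell markers had 1 of 5 tested, Cd22, which microglia also make. Ms4a1, a defining B cell gene, did not exceed 3.66 normalized counts in any library. The border macrophage markers had 2 of 10, Pf4 and Cd163, of which edgeR called 0, the endothelial markers 2 of 8, Flt1 and Cdh5, of which edgeR called 1, Flt1, and the astrocyte markers 1 of 8, Gfap. The monocyte and neutrophil markers had 0 of 6 (0 unadjusted), the choroid plexus markers 0 of 7 (1 unadjusted) and the CA1 neuron markers 0 of 9 (0 unadjusted), and edgeR called 0 in each. Their part in the members' values was not tested.

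Within each group, H2-K1 and Cd74 were high in the same libraries. Across the 7 APP anti-miR-mix libraries, log2 levels of H2-K1 and Cd74 gave a Pearson r of 0.942 (exact two-sided permutation p = 0.00417, adjusted over 9 relations 0.00751) and a Spearman rho of 0.929 (exact permutation p = 0.00675, adjusted 0.0121). In the 6 APP control libraries r was 0.945 (exact permutation p = 0.00417, adjusted 0.00751) and rho 0.943 (exact permutation p = 0.0167, adjusted 0.025). In the 6 WT control libraries r was 0.972 (exact permutation p = 0.00139, adjusted 0.00626) and rho 1 (exact permutation p = 0.00278, adjusted 0.0121). Without the 2 libraries farthest from the median of H2-K1, r was 0.696, 0.851 and 0.763 in these groups, over 5, 4 and 4 libraries.

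H2-K1 and its activator Nlrc5 gave r of 0.978 in APP anti-miR-mix, 0.929 in APP control and 0.947 in WT control (exact permutation p = 0.00139, 0.00417 and 0.0194, adjusted 0.00626, 0.00751 and 0.0291). Their rho was 0.929, 1 and 0.6 (exact permutation p = 0.00675, 0.00278 and 0.242, adjusted 0.0121, 0.0121 and 0.311). Without 2 libraries r was 0.95, 0.958 and 0.3, so the relation in WT control rested on the libraries left out, WT control 1 among them.

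Cd74 and its activator Ciita gave r of 0.639, 0.262 and 0.389 in the same order, and none passed (exact permutation p = 0.122, 0.428 and 0.476, adjusted 0.157, 0.476 and 0.476). The rho was 0.929, 0.486 and 0.086 (exact permutation p = 0.00675, 0.356 and 0.919, adjusted 0.0121, 0.4 and 0.919), so that only the rank order in APP anti-miR-mix passed. Without 2 libraries r was 0.348, 0.686 and -0.182.

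**Figure D4:**
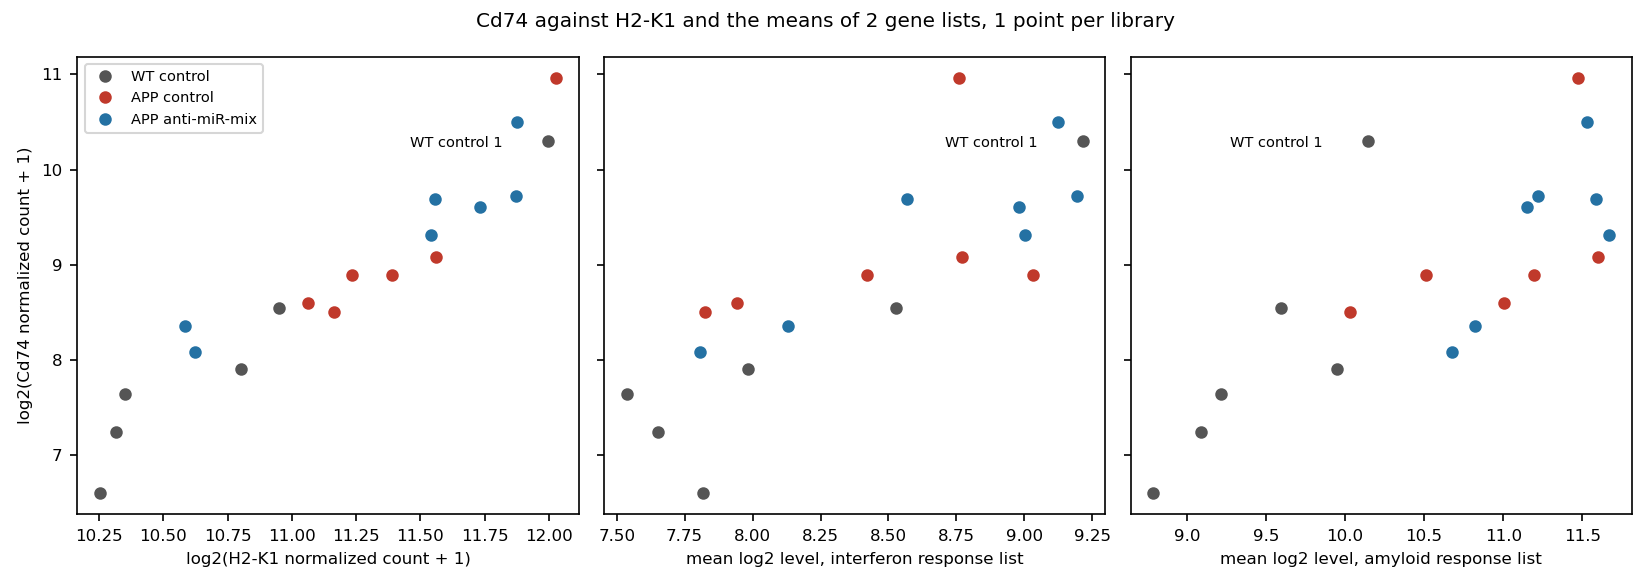
Log2(Cd74 normalized count + 1) against the same for H2-K1 (left), the mean log2 level of the 20 interferon response genes (middle) and that of the 16 amyloid response genes (right), 1 point per library coloured by group. WT control 1 lies among the APP libraries at left, has the highest mean of all libraries in the middle panel (9.21) and stands well above the other WT libraries in Cd74 at right, where its mean of 10.1 compares with 8.79 to 9.95 in the other 5.

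The genes most like the members over all 19 libraries, each group centred on its mean, included other antigen presentation genes. With the 10 members left out of the ranking, for Cd74 the 5 highest Pearson r among 14091 genes were those of Psmb9 (0.956), Psd4 (0.929), H2-Q6 (0.909), Apobec1 (0.906) and H2-T22 (0.904). Of the members themselves, H2-Aa (0.955) and H2-Ab1 (0.95) were the most like Cd74, and Ciita (0.386) the least. For H2-K1 they were Psmb9 (0.954), Nlrc5 (0.954), Trim25 (0.954), Irgm1 (0.951) and H2-Q6 (0.951), while the member H2-D1 reached 0.983. Without WT control 1, over 18 libraries, Psmb9 stayed first for Cd74 (0.93) and Irgm1 came first for H2-K1 (0.933). These values are descriptions, and the points share their groups.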

How the data were processed

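Deposited were raw read counts per gene for 19 CA1 libraries, which the authors made from single-end reads of 50 nt with STAR 2.5.2b, Subread 1.5.1 (featureCounts) and FastQC 0.11.5 on mm10, and 1 table that the authors deposited as adjusted log2 values. Annotation release, strand and multi-mapping settings are not given in the sources used here. Symbols came from GENCODE M21, and 48349 IDs matched. Genes with at least 5 counts in 50% of libraries entered 1 DESeq2 1.42.0 Wald fit of the 3 groups, with Benjamini-Hochberg adjustment at 0.05. edgeR 4.0.16 and limma 3.58.1 (deposited table) served as alternatives. The DESeq2 and edgeR fits of the 3 groups were tested on simulated counts, and the other steps were not. Replicates are separate samples by title, and p-values measure the spread between them. Members and lists were chosen with earlier results of these data known. The genes named were the members, genes of the antigen presentation lists past the threshold (up to 8 per list), at most 3 genes of other lists, Thy1 and App, and the 5 genes of at least 50 mean normalized counts most alike to Cd74 and H2-K1. Other genes, those past the threshold only without WT control 1 and single marker genes among them, were named after their values were seen. Figures were drawn with matplotlib. Part of the description of the transgenes is not reported here.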

Additional observations from a re-analysis of the deposited data

Results flagged for a closer look

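Of 30 groups of values (10 genes in 3 groups), 10 held a library whose gap to its nearest neighbour took an unusually large share of the range (Dixon's criterion). The counts were taken without logs. Chance gives about 1 in 20 only for normally distributed values, and these counts are skewed, so 10 of 30 cannot be set against that rate. The values within a library are not independent, since the members share it. WT control 1 stood high for H2-K1 (4082 normalized counts), H2-D1 (5399), H2-Aa (556), H2-Ab1 (386) and Cd74 (1264). APP control 4 stood high for H2-Aa (584 normalized counts), H2-Ab1 (437), H2-Eb1 (346) and Cd74 (1997). APP control 5 stood low for Ciita (27.2 normalized counts).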

How the results depend on the processing

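In APP control against WT control, 0 members passed with all libraries. 2 passed with a replicate block, 2 with limma on the deposited log2 table, 1 with the adjustment number as a factor and 1 with Xist as a covariate. Leaving out 1 library gave 0 to 6 members, with 666 to 1209 genes passing. Chosen after seeing the data, edgeR without WT control 1 gave 4 (811 of 19415 genes). Leaving out WT control 1 and APP control 5, also chosen then, gave 6 (1200 of 19296). Leaving out WT control 1 and WT control 5, a planned setting, gave 6 as well (1176 of 19301). In APP anti-miR-mix against WT control, 2 members passed with all libraries (1727 of 19297 genes) and 1 to 6 with 1 library left out (1169 to 2012 genes). The count of members was 0 without WT control 5 and APP anti-miR-mix 6 (1259 of 19289 genes) and 6 without WT control 1 and WT control 5 (1958 of 19301). It was 7 without WT control 1 and APP control 5 (2160 of 19296) and 6 with edgeR without WT control 1 (1414 of 19415). Between the APP groups it was 0 under every alternative run. The cause of these shifts was not tested.

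Signs turned as follows. Between the APP groups, log2 fold changes ran with 1 library left out from -0.0397 to 0.19 for H2-K1, -0.0625 to 0.21 for H2-D1, -0.0121 to 0.22 for B2m, -0.11 to 0.45 for H2-Ab1 and -0.20 to 0.71 for Cd74. They were -0.0131 for H2-K1 and -0.0104 for H2-D1 with limma, and -0.0076 and -0.011 without WT control 5 and APP anti-miR-mix 6. Without WT control 1 and APP control 5 they were -0.0119 for H2-K1, -0.0233 for H2-D1, -0.0119 for B2m, -0.1108 for H2-Ab1 and -0.0807 for Cd74. Against WT control, APP control ran from -0.26 to 0.91 for H2-Aa and -0.17 to 0.73 for H2-Eb1, negative without APP control 4.

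The labels do not say that libraries with the same number in different groups are paired. The adjustment number is the same across the 3 groups for 3 of the 6 replicate numbers, so that these libraries also share that value. The deviations of same-numbered libraries correlated from -0.125 to 0.347, over 0.1 in 10 of 18 pairs, and 5 of 18 matched their own number best. The replicate block gave 2, 0 and 3 members in the 3 comparisons, where 1222, 1 and 2202 of the 19297 genes passed in either direction.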
